A study of Sus scrofa with 12 samples.

Results

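The genes described here are 48 DNA damage response and repair genes of the pig, measured in denuded oocytes during in vitro maturation. They were matched by symbol to a list of 56 repair genes, and were 48 of the 28965 genes in the table. The match uses no measured value, but the list was drawn up with earlier results of these data known. Another 3 listed genes (BRCA2, RAD50 and FANCC) have no symbol in the table and were found by identifier only. They are not counted among the 48, and their values are given separately. The other 5 listed symbols (ERCC5, XRCC4, XRCC3, OGG1 and ERCC1) were not analysed here. The 12 libraries fall into 4 groups of 3, sampled at 0, 12, 28 and 44 h. Per the series title the oocytes were matured in a chemically defined medium, and 0 h stands as the baseline for the later times. The labels name oocytes as the cell type and give no genotype, breed or age. Whether the 3 libraries of a group stem from different animals or culture runs is not stated, and p-values therefore reflect library-to-library spread alone, which may be technical.

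DNA repair is organised by the kind of lesion. The kinases ATM and ATR sense breaks and stalled replication forks and pass the signal to CHEK2 and CHEK1. Broken ends are trimmed for homologous recombination or rejoined directly by end joining, crosslinks between strands are handled by the Fanconi anaemia proteins, and damaged or mispaired bases are cut out by the mismatch, base excision and nucleotide excision pathways. An oocyte carries stored maternal transcripts through the meiotic divisions, and the early embryo depends on this maternal supply, repair proteins included, until its own genome is active.

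Each library held between 21877235 and 26015373 counts. Levels are given as TMM-scaled CPM, each gene's share of the counts of a library, so less RNA of a gene per oocyte and more RNA of other genes cannot be told apart. Of 21 oocyte markers 19 were in the table and all 19 had counts, with a summed level of 14212 to 14638 CPM in the 44 h libraries and of 18029 to 21039 CPM in the 0 h libraries. Of 32 cumulus and granulosa markers 30 were in the table and 28 had counts. FSHR and LUM were at 0 in every library, and the whole list summed to 315 to 335 CPM in the 44 h libraries and to 340 to 394 CPM in the 0 h libraries. AMH held most of this sum, with 164 ± 11.13 CPM at 44 h and 209 ± 39.6 CPM at 0 h. The 26 scarcer markers summed to 16.2 to 40.6 CPM in the 44 h libraries and to 16.6 to 23.9 CPM in the 0 h libraries. Of the 17 cumulus and granulosa markers tested, edgeR called 3 higher at 44 h than at 0 h (IGFBP5, PTGS2 and INHBA) and 2 lower (AMH and INHBB). This is 29.4% of them, beside 19.9% of all tested genes. Of the 19 oocyte markers, 2 were called higher and 11 lower (68.4%). IGFBP5 had 1.57 ± 0.141 CPM at 44 h and 0.0414 ± 0.0718 CPM at 0 h, and INHBA 4.72 ± 1.99 CPM at 44 h and 1.503 ± 0.718 CPM at 0 h. PTGS2 had 1.71 ± 2.59 CPM at 44 h and 0.119 ± 0.101 CPM at 0 h. Its 44 h mean rests on replicate 1, with 4.70 CPM against 0.155 and 0.284 CPM in replicates 2 and 4. Mitochondrially encoded genes took 0.566 to 0.80% of counts at 44 h and 1.02 to 1.13% at 0 h. In these bulk libraries fewer cells of a type and less RNA per cell cannot be told apart, and the part of these differences in the results that follow was not tested.

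Together the 48 genes took a small share of the library, whose mean moved little between times. Their summed level was 5380 ± 148 CPM at 0 h, 5508 ± 87.1 CPM at 12 h, 5432 ± 65.4 CPM at 28 h and 5408 ± 24.2 CPM at 44 h (SD, n = 3 each). The sum was 0.541% of counts at 44 h and 0.538% at 0 h. LIG3, the ligase that seals nicks in base excision repair and in mitochondrial DNA, alone held 17.4% of the summed level, and the 5 most abundant genes held 41.0%.

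Levels of different genes were compared per length, as RPKM, which divides a gene's share of the reads by the length of its model. FANCL, the ubiquitin ligase of the Fanconi anaemia core complex, had the highest level, at 121 ± 10.8 RPKM at 44 h and 135 ± 3.73 RPKM at 0 h. PARP1, the sensor of single-strand breaks, had 73.8 ± 3.34 RPKM at 44 h and 66.3 ± 2.77 RPKM at 0 h. LIG3 had 71.2 ± 2.59 RPKM at 44 h and 70.3 ± 3.24 RPKM at 0 h, so PARP1 and LIG3 were not separated by their spread at either time. These were followed, as means of all 12 libraries, by the end-binding Ku subunit XRCC6 at 48.8 RPKM, the ultraviolet damage sensor subunit DDB1 at 41.9 RPKM, the BRCA1 to BRCA2 linker PALB2 and the FANCD2 partner FANCI at 37.0 RPKM each, the end-resection factor RBBP8 at 34.7 RPKM and the uracil glycosylase UNG at 33.1 RPKM. At the low end stood the break sensor subunit NBN, at 1.18 ± 0.163 RPKM at 44 h and 1.57 ± 0.183 RPKM at 0 h, and the core complex member FANCE, at 1.10 ± 0.0886 RPKM at 44 h and 1.11 ± 0.193 RPKM at 0 h. FANCG, another core complex member, was lowest at a mean of 0.457 RPKM. Its counts were uneven between libraries of the same time, and its model lies inside that of another gene (described further on). Without FANCG the highest mean was 110 times the lowest. Within a pathway the spread was wide: the Fanconi genes ran from 0.457 to 123 RPKM, and the checkpoint genes from 2.40 RPKM for CHEK2 to 21.6 RPKM for CHEK1.

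**Figure D1:**
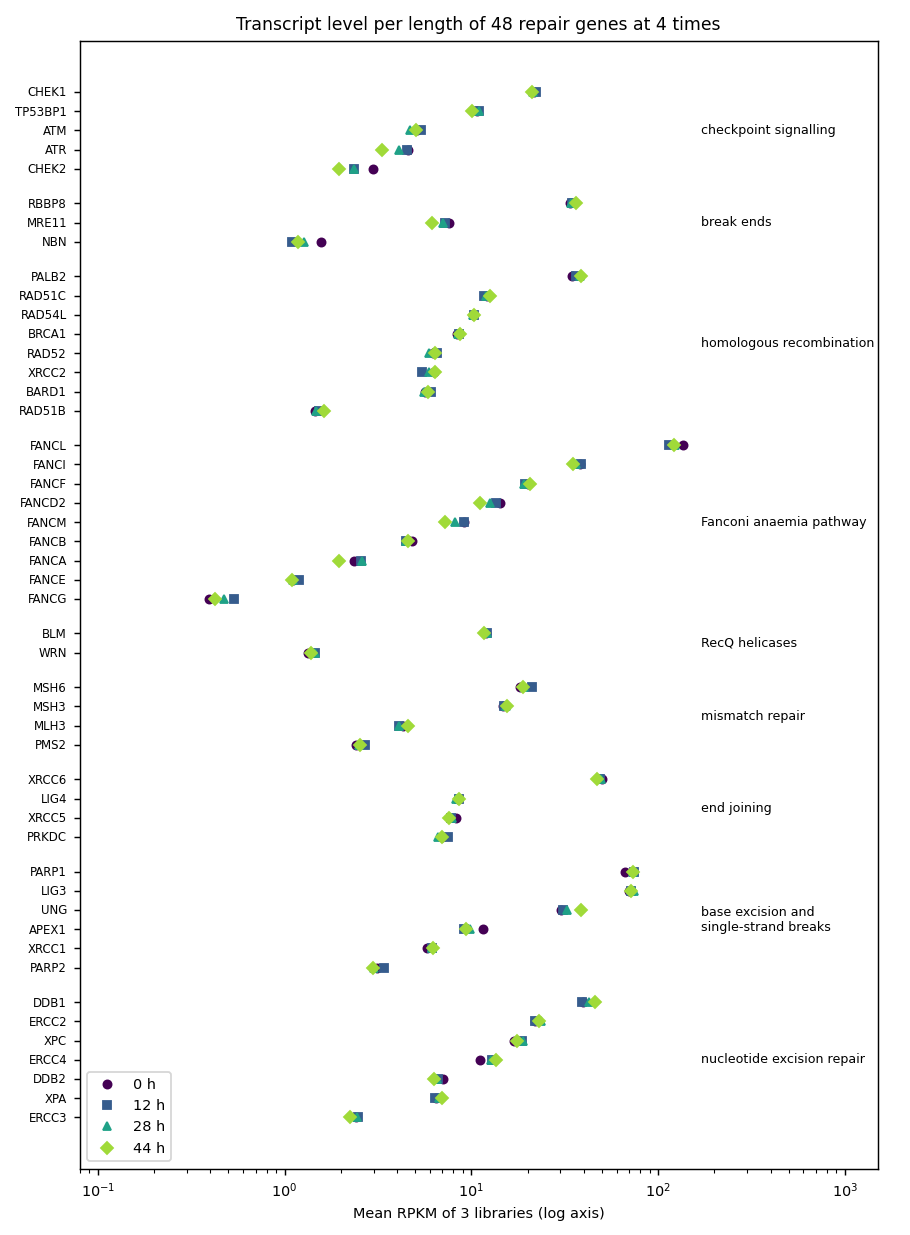
Mean RPKM of 3 libraries (x axis, log scale) for each of the 48 genes, ordered within pathways, with 1 symbol per time. The 4 symbols of most genes lie close together, and the distances between genes, from 0.457 RPKM for FANCG to 123 RPKM for FANCL as means of 12 libraries, are much larger than the distances between times.

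The whole of maturation was covered by the comparison of 44 h with 0 h. Of the 48 genes, 9 passed an adjusted p of 0.05 (edgeR's quasi-likelihood test, Benjamini-Hochberg adjustment over all 12977 tested genes). This is 18.8% of them, beside a background of 19.9% of all tested genes. Lower at 44 h were 6: ATR, CHEK2, MRE11, FANCD2, FANCM and APEX1, with 11.6% of all tested genes called lower. Higher at 44 h were 3: UNG, ERCC4 and DDB1, with 8.3% of all tested genes called higher. The share of repair genes called was thus near the background. Each pathway described next holds 2 to 9 of the genes, and its counts of called genes stand beside these same background shares and are descriptions only. The sizes were small, from a 1.52-fold lower level of CHEK2 to a 1.27-fold higher level of UNG. The median log2 fold change was 0.02 over the 48 genes and −0.00 over all tested genes.

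At 44 h against 0 h, the 95% interval of the fold change lay within 1.5-fold either way for 44 of the 48 genes (91.7%) and for 57.7% of all tested genes. The exceptions were ATR and CHEK2, whose called falls carry the interval past 1.5-fold, NBN and FANCG. The repair genes were also more abundant, with a median of 79.4 CPM beside 20.0 CPM over all tested genes. Over all 12 libraries the highest value was under 1.5 times the lowest in 37 of the 47 genes with counts everywhere. The libraries of 1 time differed by a median coefficient of variation of 7.82%.

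**Figure D2:**
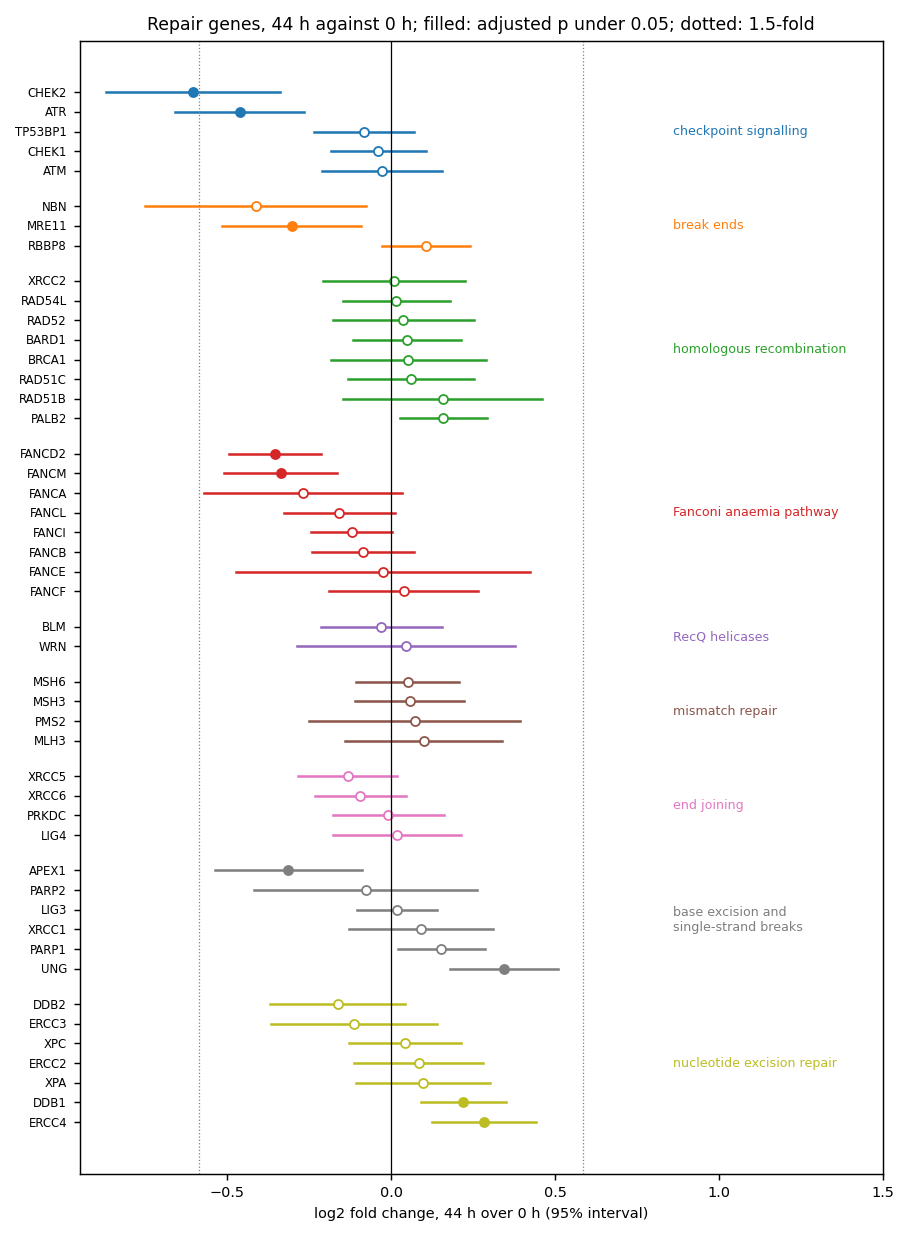
Log2 fold change of 44 h over 0 h with its 95% interval (x axis) for 47 of the 48 genes, by pathway; FANCG is left out because 2 of its libraries held no count. Filled points passed an adjusted p of 0.05 in edgeR's quasi-likelihood test, and the dotted lines mark 1.5-fold. Of the filled points, 6 lie left of zero and 3 right of it, from −0.60 for CHEK2 to 0.34 for UNG.

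Of the 5 checkpoint signalling genes, ATR and CHEK2 fell at 44 h against 0 h. ATR, the kinase that senses single-stranded DNA at stalled forks (ENSSSCG00000011679, chromosome 13, 83174824 to 83289923 on Sscrofa11.1), had 51.5, 57.9 and 46.9 CPM at 0 h, 57.5, 51.7 and 46.8 CPM at 12 h, 43.6, 48.8 and 46.6 CPM at 28 h, and 38.4, 37.2 and 37.9 CPM at 44 h. The 44 h libraries were the lowest of all 12 and lay close together, well under those at 0 h. ATR fell by 0.46 on the log2 scale (SE 0.09, adjusted p = 0.0011). CHEK2, the kinase that ATM activates at breaks (ENSSSCG00000034864, chromosome 14, 45926613 to 45967296), had 19.1, 17.1 and 21.1 CPM at 0 h, 15.9, 15.1 and 15.2 CPM at 12 h, 17.1, 15.2 and 12.8 CPM at 28 h, and 12.4, 11.9 and 13.4 CPM at 44 h. The 44 h libraries did not overlap those at 0 h, while 1 library at 28 h reached the 44 h range. CHEK2 fell by 0.60 on the log2 scale (SE 0.13, adjusted p = 0.00142), the largest change among the 48 genes. The other kinases and the break adaptor TP53BP1 were not called: log2 fold changes were −0.03 for ATM (adjusted p = 0.874), −0.04 for CHEK1 (adjusted p = 0.772) and −0.08 for TP53BP1 (adjusted p = 0.499).

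Of the 3 genes that act on broken ends, MRE11, the nuclease of the break sensor complex (ENSSSCG00000014955, chromosome 9, 26572360 to 26634568), fell. It had 68.3, 87.1 and 69.8 CPM at 0 h, 78.2, 76.6 and 61.1 CPM at 12 h, 69.2, 71.9 and 67.6 CPM at 28 h, and 65.9, 62.0 and 54.4 CPM at 44 h. The 44 h values lay below all 0 h values, with a narrow gap, and 1 library at 12 h was in their range. The fall was 0.30 on the log2 scale (SE 0.10, adjusted p = 0.0394), and the call was lost without replicate 3 of 0 h (adjusted p = 0.196), replicate 2 of 44 h (0.0736) or replicate 4 of 44 h (0.172). Its partner NBN had 10.1, 9.23 and 12.2 CPM at 44 h and 12.1, 14.7 and 15.0 CPM at 0 h, which overlapped, with a log2 fold change of −0.41 (SE 0.16, adjusted p = 0.0789). NBN passed when replicate 4 of 44 h was left out. RAD50, the third subunit, was found by identifier only and had 162 ± 15.2 CPM at 44 h and 163 ± 16.8 CPM at 0 h (log2 fold change −0.01, adjusted p = 0.964). RBBP8, which starts end resection, had a log2 fold change of 0.11 (adjusted p = 0.284).

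Of the 8 homologous recombination genes, edgeR and limma-voom called 0 at 44 h against 0 h. Among them 1, PALB2, had an unadjusted p under 0.05, beside 31.1% of all tested genes. PALB2 averaged 296 ± 6.96 CPM at 44 h and 265 ± 17.0 CPM at 0 h (SD, n = 3 each), with a log2 fold change of 0.16 (SE 0.06, adjusted p = 0.0844), and it was the 1 gene of the 8 called by DESeq2; edgeR called it too when replicate 3 of 0 h was left out. BRCA1, which promotes end resection, averaged 116 ± 15.8 CPM at 44 h and 112 ± 13.6 CPM at 0 h. Its obligate partner BARD1 averaged 86.0 ± 1.66 CPM at 44 h and 83.1 ± 4.15 CPM at 0 h. RAD51C, which acts in recombination alongside RAD51B and XRCC2, averaged 49.8 ± 3.30 CPM at 44 h and 47.8 ± 5.89 CPM at 0 h. RAD51B, XRCC2, the annealing protein RAD52 and the motor protein RAD54L likewise missed the threshold, and the log2 fold changes of the 8 genes lay between 0.01 and 0.16. BRCA2, a central mediator of homologous recombination, was found by identifier only and had 940 ± 40.3 CPM at 44 h and 937 ± 174 CPM at 0 h (log2 fold change 0.01, adjusted p = 0.986). Its mean of 75.0 RPKM over 12 libraries lay between FANCL and PARP1.

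The Fanconi anaemia pathway held 2 genes that fell among 9. FANCD2, which is ubiquitinated together with FANCI when the pathway is switched on (ENSSSCG00000011563, chromosome 13, 66241673 to 66310436), had 116, 117 and 129 CPM at 0 h, 115, 116 and 120.1 CPM at 12 h, 108.3, 109 and 104.4 CPM at 28 h, and 94.1, 90.3 and 98.6 CPM at 44 h. All 28 h libraries lay below all earlier ones, and all 44 h libraries below those at 28 h. FANCD2 fell by 0.36 on the log2 scale (SE 0.07, adjusted p = 0.000563). FANCM, the translocase that anchors the core complex at forks (ENSSSCG00000005000, chromosome 1, 175334047 to 175445650), had 96.7, 108.4 and 98.1 CPM at 0 h, 105.4, 96.9 and 105.8 CPM at 12 h, 84.0, 93.2 and 95.2 CPM at 28 h, and 79.2, 71.3 and 89.5 CPM at 44 h. The 44 h libraries were below all those at 0 and 12 h and overlapped those at 28 h. FANCM fell by 0.34 on the log2 scale (SE 0.08, adjusted p = 0.00551).

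The other Fanconi genes were not called at 44 h against 0 h. FANCA, with 11.2 ± 1.93 CPM at 44 h and 13.5 ± 1.05 CPM at 0 h, had a log2 fold change of −0.27 (adjusted p = 0.218). FANCL had a log2 fold change of −0.16 (adjusted p = 0.192) and FANCI of −0.12 (adjusted p = 0.170). The core complex genes FANCB, FANCE and FANCF had log2 fold changes of −0.09, −0.02 and 0.04. The summed level of the 9 Fanconi genes was 1013 ± 23.9 CPM at 0 h, 975 ± 10.7 CPM at 12 h, 938 ± 22.3 CPM at 28 h and 899 ± 27.5 CPM at 44 h. The 44 h libraries did not overlap those at 0 h, but how often sums of other genes show such a gap was not computed. This sum includes the called FANCD2 and FANCM, is a description and was not tested. FANCC, found by identifier only, had 15.9 ± 0.722 CPM at 44 h and 15.3 ± 0.081 CPM at 0 h (log2 fold change 0.06, adjusted p = 0.812).

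The RecQ helicases BLM and WRN, which take apart recombination intermediates, were not called, with a log2 fold change of −0.03 for BLM (adjusted p = 0.868) and 0.04 for WRN (adjusted p = 0.892). The 4 mismatch repair genes lay between 0.05 and 0.10 on the log2 scale, with an adjusted p of 0.724 for MSH6 and 0.700 for MSH3, which recognise mispaired or looped-out bases. MLH3 and PMS2, which act after recognition, had log2 fold changes of 0.10 (adjusted p = 0.628) and 0.07 (adjusted p = 0.818). The 4 end joining genes lay between −0.13 for XRCC5, a Ku subunit, and 0.02 for LIG4, the ligase of the pathway. PRKDC, the kinase that Ku recruits, had 122 ± 2.53 CPM at 44 h and 123 ± 12.4 CPM at 0 h (adjusted p = 0.959).

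Base excision repair had 1 gene that rose and 1 that fell among 6. UNG, the glycosylase that removes uracil from DNA (ENSSSCG00000009938, chromosome 14, 41746501 to 41757862), had 100.3, 96.3 and 98.5 CPM at 0 h, 99.2, 112 and 93.2 CPM at 12 h, 109, 111 and 95.2 CPM at 28 h, and 131, 128 and 116 CPM at 44 h. The 44 h libraries were the highest of all 12. UNG rose by 0.34 on the log2 scale (SE 0.08, adjusted p = 0.00315). APEX1, the endonuclease that cuts the abasic site a glycosylase leaves (ENSSSCG00000040060, chromosome 7, 78451851 to 78454938), had 30.8, 28.4 and 27.6 CPM at 0 h, 23.2, 20.9 and 24.6 CPM at 12 h, 26.9, 21.5 and 24.6 CPM at 28 h, and 21.8, 23.5 and 24.5 CPM at 44 h. The 0 h libraries were the highest of all 12, and those of the later times overlapped each other.

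APEX1 fell by 0.31 on the log2 scale at 44 h against 0 h (SE 0.11, adjusted p = 0.0427), the weakest of the 9 calls. It was lost without any of replicates 2, 3 and 4 of 0 h (adjusted p = 0.170, 0.0515 and 0.0546), replicate 4 of 28 h (0.0516), or any of replicates 1, 2 and 4 of 44 h (0.167, 0.0904 and 0.0526). The other genes of base excision and single-strand break repair were not called. PARP1 averaged 360 ± 13.7 CPM at 44 h and 324 ± 16.5 CPM at 0 h (log2 fold change 0.15, adjusted p = 0.0967). LIG3 averaged 934 ± 26.3 CPM at 44 h and 922 ± 40.4 CPM at 0 h. Its scaffold XRCC1 averaged 27.4 ± 1.64 CPM at 44 h and 25.7 ± 2.86 CPM at 0 h. PARP2, the scarcer relative of PARP1, averaged 7.06 ± 0.305 CPM at 44 h and 7.45 ± 0.812 CPM at 0 h.

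Of the 7 nucleotide excision repair genes, ERCC4 and DDB1 rose, beside 8.3% of all tested genes called higher. ERCC4, the nuclease subunit that cuts on the 5′ side of the lesion (ENSSSCG00000007881, chromosome 3, 29266236 to 29306116), had 87.5, 99.7 and 85.2 CPM at 0 h, 102.04, 99.1 and 116 CPM at 12 h, 98.7, 104.6 and 106.7 CPM at 28 h, and 111, 110.0 and 110.3 CPM at 44 h. The 44 h libraries lay close together and above all those at 0 h, and 1 library at 12 h was higher still. ERCC4 rose by 0.28 on the log2 scale (SE 0.08, adjusted p = 0.0109), and the call was lost without replicate 2 of 0 h (adjusted p = 0.0579) or replicate 4 of 0 h (0.0558). DDB1, which with DDB2 recognises ultraviolet lesions and also serves as the adaptor of cullin 4 ubiquitin ligases (ENSSSCG00000013094, chromosome 2, 10171499 to 10201602), had 209.8, 212 and 215 CPM at 0 h, 219, 208 and 213 CPM at 12 h, 225, 218 and 246 CPM at 28 h, and 258, 246 and 237 CPM at 44 h. The 44 h libraries were above all those at 0 and 12 h and overlapped those at 28 h.

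DDB1 rose by 0.22 on the log2 scale at 44 h against 0 h (SE 0.06, adjusted p = 0.0151), and the call was lost without replicate 2 of 0 h (adjusted p = 0.0612) or replicate 1 of 44 h (0.0931). DDB2 had 34.1 ± 2.81 CPM at 44 h and 38.1 ± 4.15 CPM at 0 h (log2 fold change −0.16, adjusted p = 0.284). The helicases ERCC2 and ERCC3 of the transcription factor TFIIH had log2 fold changes of 0.08 (adjusted p = 0.616) and −0.11 (adjusted p = 0.591). The damage verifier XPA and the distortion sensor XPC had log2 fold changes of 0.10 (adjusted p = 0.564) and 0.04 (adjusted p = 0.80). The summed level of the 7 genes was 684 ± 11.6 CPM at 0 h, 712 ± 14.8 CPM at 12 h, 738 ± 41.8 CPM at 28 h and 749 ± 10.9 CPM at 44 h, a description without a test. This sum and that of the Fanconi genes include called genes. In the other pathways the mean sums at 0 h and 44 h were 411 and 380 CPM for checkpoint signalling and 356 and 359 CPM for broken ends. They were 650 and 693 CPM for homologous recombination, 93.8 and 92.5 CPM for RecQ helicases, and 329 and 342 CPM for mismatch repair. End joining had 437 and 418 CPM, and base excision and single-strand break repair 1406 and 1476 CPM.

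**Figure D3:**
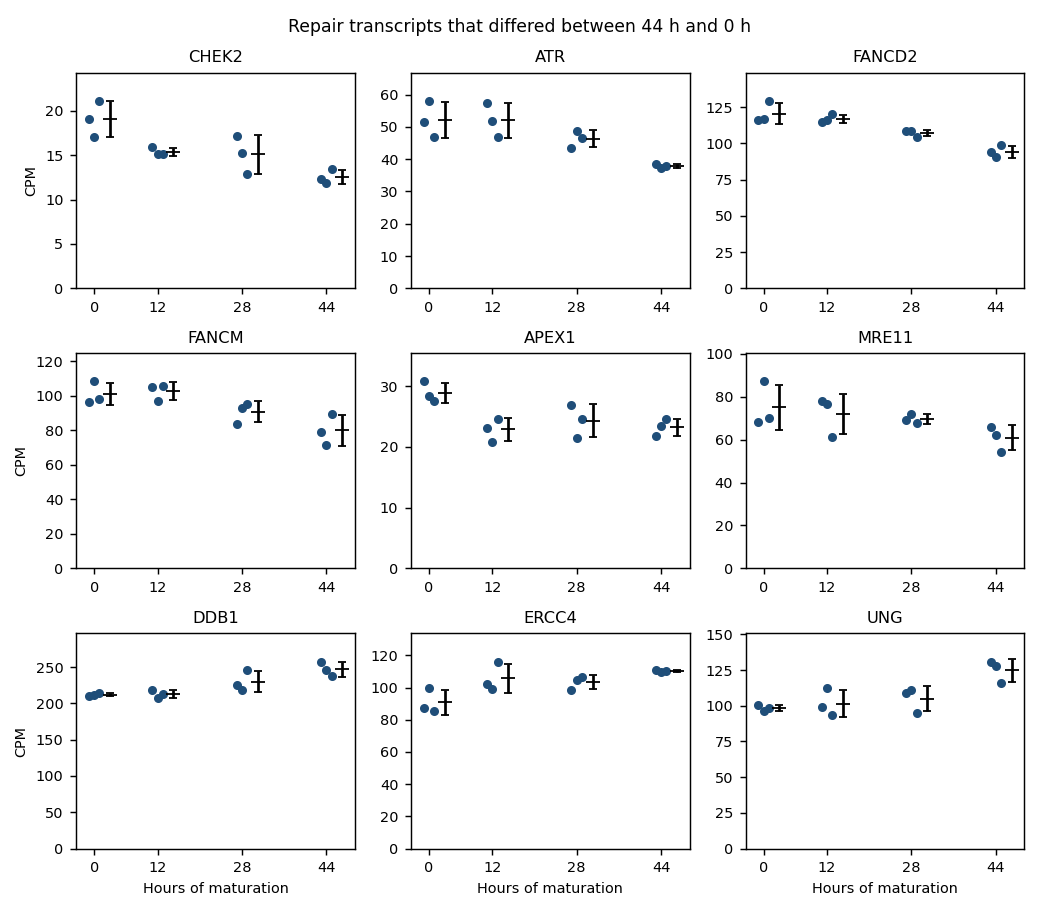
CPM in each library (y axis) against hours of maturation (x axis) for the 9 genes called at 44 h against 0 h, with points for libraries and a bar for the mean and SD of each time (n = 3). The 44 h mean is lower in 6 panels and higher in 3, as with CHEK2 (12.5 CPM at 44 h, against 19.1 CPM at 0 h) and DDB1 (247 CPM at 44 h, against 212 CPM at 0 h). The 44 h and 0 h points do not overlap in any of the 9 panels. These genes were chosen by this same comparison, so the gaps add no support to the calls. The share of all tested genes without overlap was not computed.

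The single steps of maturation gave no call among the 48 genes. At 12 h against 0 h, edgeR called 0 of 48, beside a background of 0.208% of all tested genes, and DESeq2 and limma-voom also called 0. An unadjusted p under 0.05 was reached by 7 of 48 (14.6%), beside 11.3% of all tested genes. These were CHEK2 (log2 fold change −0.31), NBN (−0.52), FANCL (−0.24), MSH6 (0.21), PARP1 (0.17), APEX1 (−0.34) and ERCC4 (0.22). At 28 h against 12 h, edgeR, DESeq2 and limma-voom called 0 of 48, beside a background of 0.262%. In this step 3 had an unadjusted p under 0.05 (6.25%, the same as over all tested genes): ATM (−0.22), FANCM (−0.18) and PRKDC (−0.18). At 44 h against 28 h, edgeR called 0 of 48, beside a background of 4.69%. Here 5 had an unadjusted p under 0.05 (10.4%, beside 15.4% of all tested genes): ATR (−0.29), FANCA (−0.40), FANCD2 (−0.18), FANCM (−0.18) and UNG (0.25). In that step DESeq2 called 1, UNG, and limma-voom 0, while an edgeR fit of the libraries of these times alone called 2, ATR and UNG.

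The test for any change over the 4 times called 6 of the 48 genes (12.5%), beside a background of 13.1% of all tested genes. These were FANCD2 (adjusted p = 0.00267), ATR (0.00348), FANCM (0.0114), UNG (0.0122), CHEK2 (0.0128) and DDB1 (0.0434). Without replicate 1 of 44 h, or without replicate 2 of 44 h, only ATR and FANCD2 of these 6 were still called. CHEK2 also lost its call without replicate 2 or replicate 4 of 0 h, and DDB1 kept its call only when the library left out was replicate 3 of 0 h or replicate 4 of 28 h.

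**Figure D4:**
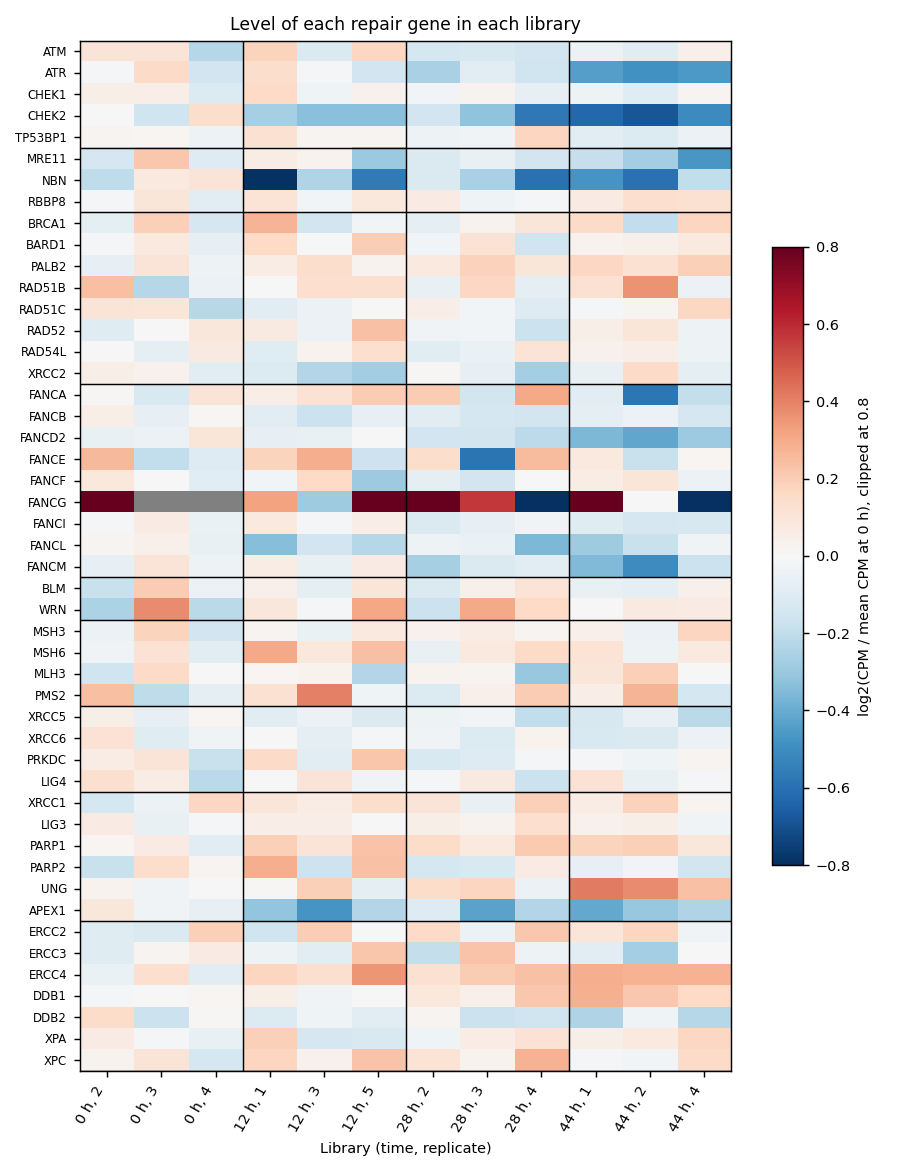
Log2 ratio of each library's CPM to the gene's mean at 0 h (colour, clipped at 0.8 either way) for the 48 genes (rows, by pathway) in 12 libraries (columns, by time and replicate), with grey where the count was 0. The ATR, CHEK2 and FANCD2 rows turn blue and the UNG row red in all 3 libraries of 44 h, while most rows stay pale throughout; the FANCG row swings between libraries of the same time.

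Ratios of CPM between partners that act together were compared for 11 pairs between 44 h and 0 h with an exact two-sided permutation test of the log2 ratios, which with 3 libraries a time cannot go below p = 0.1, so no pair could pass 0.05 and the ratios are descriptions. ATR per ATM was 0.352 ± 0.0144 at 44 h and 0.476 ± 0.0341 at 0 h (exact p = 0.1). CHEK2 per CHEK1 was 0.0877 ± 0.00211 at 44 h and 0.131 ± 0.0216 at 0 h (exact p = 0.1). FANCD2 per FANCI was 0.267 ± 0.0120 at 44 h and 0.315 ± 0.0304 at 0 h (exact p = 0.1). In each of these the 3 libraries at 44 h lay below the 3 at 0 h.

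The other pairs with no overlap were DDB1 per DDB2, at 7.29 ± 0.693 at 44 h and 5.61 ± 0.640 at 0 h, UNG per APEX1, at 5.40 ± 0.644 at 44 h and 3.41 ± 0.156 at 0 h, and PARP2 per PARP1, at 0.0196 ± 0.000222 at 44 h and 0.0231 ± 0.00254 at 0 h. All 6 pairs without overlap had the smallest p the design allows, 0.1, and an adjusted p of 0.183 over the 11 pairs. Except for PARP2 per PARP1, each holds a gene already called at 44 h against 0 h, and UNG per APEX1 holds a called rise and a called fall. These ratios therefore restate the single-gene calls, and the share without overlap among other gene pairs was not computed. The groups overlapped in the other 5 pairs. XRCC5 per XRCC6, the Ku subunits, was 0.598 ± 0.0473 at 44 h and 0.615 ± 0.0253 at 0 h (exact p = 0.7). BARD1 per BRCA1 was 0.752 ± 0.107 at 44 h and 0.748 ± 0.0517 at 0 h (exact p = 1), and MSH6 per MSH3 was 1.55 ± 0.0871 at 44 h and 1.56 ± 0.0712 at 0 h (exact p = 0.8).

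FANCG was the least even of the 48 genes. Its model (ENSSSCG00000034874, chromosome 1, 235871349 to 235887992) lies wholly inside that of PIGO (chromosome 1, 235871072 to 235888000) on the same strand, and 29.9% of its span is shared with VCP on that strand too. The spans of whole genes were compared, not their exons, and how reads in shared stretches were assigned is not given in the sources used here. FANCG had counts of 324, 0 and 0 at 0 h, 133, 85 and 223 at 12 h, 176, 163 and 32 at 28 h, and 217, 115 and 38 at 44 h. PIGO, which adds an ethanolamine phosphate to membrane anchors, had counts of 448, 705 and 804 at 0 h, 464, 620 and 440 at 12 h, 415, 432 and 638 at 28 h, and 497, 522 and 551 at 44 h. Libraries of 0 h with no FANCG count had the highest PIGO counts. A count of 0 in replicates 3 and 4 of 0 h allows up to 3 counts, or 0.117 and 0.124 CPM. The coefficient of variation over the 12 libraries was 79.9% for FANCG and 21.8% for PIGO, but 10.6% for their summed CPM. The sum was 30.6 ± 2.82 CPM at 0 h, 27.5 ± 2.70 CPM at 12 h, 26.2 ± 1.85 CPM at 28 h and 25.4 ± 1.90 CPM at 44 h.

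**Figure D5:**
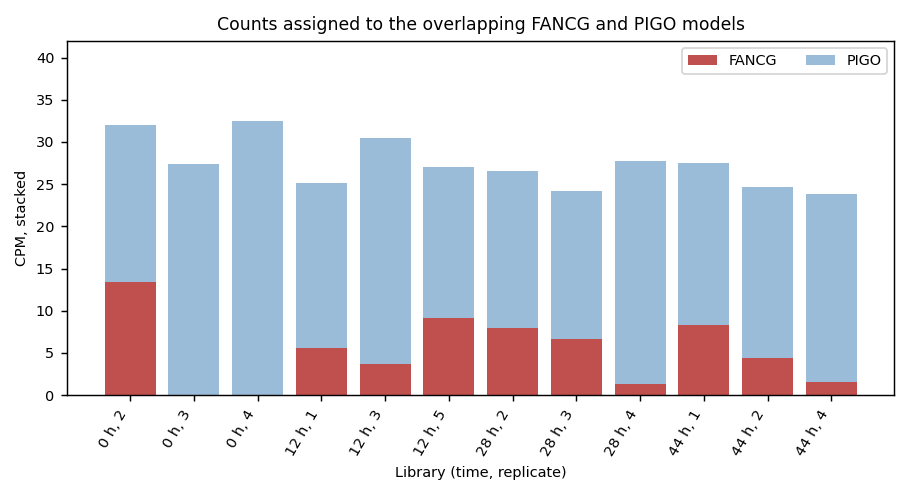
CPM assigned to FANCG (red) and to PIGO (blue), stacked (y axis), in each of the 12 libraries (x axis, time and replicate). The red part runs from 0 in 2 libraries of 0 h to 13.4 CPM in the third, while the full bars stay between 23.9 and 32.5 CPM.

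Overlap with neighbouring genes touched other repair genes too. Of the 48 models, 24 overlapped another gene that had a mean of at least 1 CPM, 8 of them on the same strand and 16 on the opposite strand only. CHEK1 lies almost entirely inside STT3A on the same strand (99.9% of its span), and 75.7% of the FANCE span is shared with the ribosomal protein gene RPL10A, 70.7% of BRCA1 with VAT1 and 63.4% of FANCI with ABHD2. The library kit keeps strand, but whether the counting used it is not given in the sources used here. Among the called genes, APEX1 shares 8.84% of its span with OSGEP and FANCD2 0.382% with EMC3, each on the opposite strand.

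Abundance and length were also set beside the calls. The 9 called at 44 h against 0 h had a median of 93.6 CPM and a model length of 8124 bases, and the other 39 had 77.9 CPM and 7579 bases. The 6 that fell had a median of 58.2 CPM and 9174 bases, and the 3 that rose 107.5 CPM and 5371 bases. Across the 48 genes, which are not independent replicates, the Spearman correlation of the log2 fold change with length was −0.131, and across all tested genes 0.214.

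A wider set of 168 tested repair and recombination genes outside the 48, in 6 lists, gave a similar share of calls. At 44 h against 0 h, 8 were higher and 24 lower, 19.0% together, beside the same background of 19.9%. The median log2 fold change was −0.04. By list, the counts higher and lower were 1 and 1 of 33 for damage signalling, 3 and 5 of 40 for recombination and crosslink repair, 1 and 7 of 33 for mismatch, base and single-strand repair, 2 and 4 of 21 for end joining and nucleotide excision, 0 and 1 of 16 for translesion synthesis, and 1 and 6 of 25 for meiotic recombination. The list medians ran from −0.17 for meiotic recombination to 0.06 for damage signalling. At 44 h against 28 h, 1 was higher and 9 lower of the 168, beside a background of 4.69% in both directions together. Of these falls, that of MUS81 was lost without any 1 of the libraries of 28 h or 44 h (adjusted p = 0.0981 to 0.137). LIG1 was lost without replicate 2 of 0 h, replicate 1 of 12 h, replicates 2 or 4 of 28 h, or replicates 1 or 2 of 44 h (0.0591 to 0.215). SMARCAL1 was lost without replicates 3 or 4 of 28 h or replicates 1 or 2 of 44 h (0.0788 to 0.2299), and RFC3 without replicate 3 of 28 h (0.0522).

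The steepest falls in these lists were larger than any among the 48 genes. XAB2, which links stalled RNA polymerase to repair and also acts in splicing, had 140 ± 11.0 CPM at 44 h and 318 ± 31.2 CPM at 0 h (log2 fold change −1.18, adjusted p = 6.29e-10). In TFIIH, the helicase complex of nucleotide excision and transcription, 8 of 10 listed subunits were tested and 2 were called at 44 h against 0 h, beside the background of 19.9%. CDK7 had 85.4 ± 2.55 CPM at 44 h and 126 ± 3.01 CPM at 0 h (log2 fold change −0.56, adjusted p = 4.97e-06), and GTF2H5 had 5.67 ± 0.497 CPM at 44 h and 12.1 ± 1.31 CPM at 0 h (log2 fold change −1.09, adjusted p = 9.94e-06). The other 6, ERCC2 and ERCC3 among them, were not called, with log2 fold changes from −0.84 for GTF2H3 (adjusted p = 0.0976) to 0.12 for MNAT1.

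Accessory factors of recombination, a clamp loader subunit and MGMT were also among the genes that fell. The recombination and crosslink repair list as a whole had 3 called higher and 5 called lower at 44 h against 0 h. This is 20.0% of its 40 genes, beside 19.9% of all tested genes. SWSAP1, an accessory factor of homologous recombination, had 12.2 ± 1.29 CPM at 44 h and 25.3 ± 4.67 CPM at 0 h (log2 fold change −1.05, adjusted p = 1.53e-06). MCM8, a helicase of recombination, had 8.68 ± 1.60 CPM at 44 h and 17.2 ± 1.86 CPM at 0 h (log2 fold change −0.99, adjusted p = 1.82e-05), while its partner MCM9 had 9.33 ± 1.83 CPM at 44 h and 9.83 ± 0.920 CPM at 0 h and was not called (adjusted p = 0.820). PSMC3IP, which promotes strand exchange in meiotic recombination, had 83.4 ± 1.23 CPM at 44 h and 111 ± 7.25 CPM at 0 h (log2 fold change −0.41, adjusted p = 0.000253). RFC3, a subunit of the clamp loader, had 116 ± 5.98 CPM at 44 h and 183 ± 9.26 CPM at 0 h (log2 fold change −0.65, adjusted p = 3.92e-07). MGMT, which reverses guanine alkylation, had 28.3 ± 2.58 CPM at 44 h and 52.1 ± 10.4 CPM at 0 h (log2 fold change −0.88, adjusted p = 2.53e-05).

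Only 1 of the 8 genes that were higher kept its call at 44 h against 0 h whichever library was left out. This was RAD54L2, a helicase related to RAD54L, with 244 ± 9.62 CPM at 44 h and 164 ± 7.08 CPM at 0 h (log2 fold change 0.57, adjusted p = 6.78e-06). RAD54L itself had 78.3 ± 2.73 CPM at 44 h and 77.5 ± 3.92 CPM at 0 h and was not called. The calls of RNF169, POLQ, WDR48, FEN1, CUL4B, UVSSA and MND1 were lost without at least 1 library of 0 h or 44 h. Those of RNF169, WDR48 and MND1 were also lost without single libraries of 28 h, and that of MND1 without replicate 1 of 12 h. Over all these losses the adjusted p lay between 0.0518 and 0.220. Among the falls, the call of NSMCE1 was lost without replicate 2 of 44 h (adjusted p = 0.0638), that of HSF2BP without replicate 2 of 0 h (0.0781), that of SMARCAL1 without replicate 2 of 0 h (0.1003) or of 44 h (0.108), and that of SYCP1 without replicate 3 of 0 h (0.104) or replicate 1 of 44 h (0.0628).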

How the data were processed

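Denuded pig oocytes were sampled at 0, 12, 28 and 44 h, with 3 libraries per time made with a stranded total RNA kit, per the labels' protocols. The authors deposited 1 table with total counts per gene and library (whole numbers, per the file headers), which were the input of every test, and RPKM values, made by the authors from these counts per the file headers, which were used only for levels and model lengths. The submitters' processing notes name Sscrofa11.1 and DESeq2. Which aligner was used, and how multiply matching reads were treated, is not given in the sources used here. The authors' other columns were not used.

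Genes were kept by filterByExpr (minimum count 10), which left 12977, and scaled by TMM, whose factors ran from 0.979 to 1.02. The model, fitted by edgeR 4.0.16 (R 4.3.3) with robust quasi-likelihood, had a mean for each time over 12 libraries and 8 residual degrees of freedom. Benjamini-Hochberg adjustment ran over all tested genes at 0.05. The biological coefficient of variation was 10.6%, and none of 66 library pairs was identical. Printed CPM are TMM-scaled. The fitting code was tested on simulated counts. Alternatives were other scalings and filters, DESeq2 1.42.0, limma-voom (limma 3.58.1), leaving out each library, the replicate number as a block, and fits of the libraries of the 2 compared times alone.

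The 48 genes, the 6 lists of other repair genes and the lists of oocyte and of cumulus and granulosa markers were chosen with earlier results of these data known. Named with library values were members that passed in any comparison; the smallest p of each pathway, the extremes of RPKM, and up to 3 genes each way per other list by smallest adjusted p were eligible. MCM9, GTF2H3, MNAT1 and other partners were chosen after their values were seen. No sequence of these genes was used here. Results of some single genes are left out of the text.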

Additional observations from a re-analysis of the deposited data

How the results depend on the processing

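None of the 41 single-gene log2 fold changes followed changed direction under any alternative. Of the 9 repair genes called at 44 h against 0 h, ATR, CHEK2, FANCD2, FANCM and UNG held under all 22 alternatives. Leaving out single libraries gave 6 to 9 calls among the 48 genes at 44 h against 0 h, 2 to 7 for any change, and 0 in each single step. The calls lost that way are given with their libraries in the report. The APEX1 call was also lost with no filter on low counts (adjusted p = 0.0540) and with upper-quartile scaling (0.05001). Outside the 48 genes, RNF169, WDR48 and MND1 lost their calls at 44 h against 0 h with library totals alone (0.0716, 0.0540 and 0.0773). They also lost them in the fit of only these times (0.0752, 0.0578 and 0.0507). RNF169 was lost with no filter (0.0705), and POLQ, WDR48 and FEN1 with the replicate block (0.133, 0.0969 and 0.0621). The cause of these losses was not tested.

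At 44 h against 28 h, the repair genes called were 1 in DESeq2 and 2 in the fit of only these times, beside 0. Over all genes, calls at 12 h against 0 h were 27, beside 64 with no filter and 68 in DESeq2, and 20 to 261 without single libraries. Calls at 28 h against 12 h were 34, beside 64 with no filter, 69 in DESeq2 and 8 with the replicate block, and 8 to 52 without single libraries. Calls at 44 h against 28 h were 609, beside 981 in the fit of only these times, and 394 to 723 without single libraries. At 44 h against 0 h leaving out single libraries gave 1706 to 2868 calls, and for any change 1089 to 2168. No scaling moved the median log2 fold change of all genes by more than 0.034.

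Deviations from the time means correlated between −0.00606 and 0.127 over the 10 pairs of libraries with the same replicate number, with 2 pairs over 0.1. Between libraries of different numbers they correlated between −0.114 and 0.0668. Of the 11 libraries with a same-numbered partner, 7 were closest to their own number. Whether the numbers mark shared batches was not tested. With the replicate number as a block, 9 of the 48 were called at 44 h against 0 h, with DDB1 lost (adjusted p = 0.0742) and PALB2 gained, and 5 for any change. Of the genes not called at 44 h against 0 h, the intervals of NBN and FANCG did not exclude a change of over 1.5-fold.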
